A study of Mus musculus with 2 samples.

Results

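The unfolded protein and integrated stress response module is a set of 32 mouse genes taken by symbol, with no measured value in the choice. All 32 were found among the 55450 gene identifiers of the count tables. They comprise 9 endoplasmic reticulum (ER) chaperones and cochaperones, 3 disulfide isomerases, 5 genes of ER-associated degradation, 2 secreted ER-stress proteins, 3 ER stress sensors, 3 transcription factors and 7 targets of the ATF4 branch. In microglia-like cells 28 of the 32 had a mean of at least 10 CPM (UMIs per 1000000 UMIs of the summed cells) and count as measured. The other 4 (Ern1, Trib3, Chac1 and Asns) are given by their UMI counts.

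Proteins that enter the ER are folded by chaperones, joined by disulfide isomerases and, when they fail to fold, pulled back to the cytosol for degradation. When unfolded proteins accumulate, the sensors ATF6, IRE1 (gene Ern1) and PERK (gene Eif2ak3) set off the unfolded protein response, in which cleaved ATF6 and the spliced form of XBP1 turn on chaperone and degradation genes. PERK also phosphorylates the initiation factor eIF2, as do kinases that sense amino acid shortage, viral RNA or haem shortage, and this integrated stress response lowers protein synthesis while translation of ATF4 rises. ATF4 and its target CHOP (gene Ddit3) then turn on genes of amino acid supply and the phosphatase subunit that ends the response. Counts of 3' RNA ends show neither XBP1 splicing, eIF2 phosphorylation nor protein, so what follows is RNA abundance alone.

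The 2 libraries hold single cells of the mouse brain from day 3 of repopulation by microglia, gated as CD11b high with low CD45. One came from Hk2 cKO mice (Cx3cr1CreER::hk2 fl/fl, strain C57BL/6) and one from Hk2 fl/fl mice (the same floxed allele without the Cre, strain C57BL/6). Hk2 encodes hexokinase 2, which phosphorylates glucose at the entry to glycolysis. The tamoxifen-inducible Cre is driven from the Cx3cr1 locus, so recombination is aimed at Cx3cr1-expressing cells, and the driver allele itself is absent from the fl/fl animals. Tamoxifen was given intraperitoneally at 100 µg on 2 consecutive days, at postnatal day 1 to 2 or otherwise as the study set. The labels do not say whether the fl/fl mice received it, how microglia were depleted, the age at collection, how many animals were pooled or which exons are floxed. Cells were freed with collagenase IV, a step that is part of both libraries.

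The cKO library held 2607 barcodes and 32896996 UMIs and the fl/fl library 3089 barcodes and 37476201 UMIs, and 2 barcode sequences occurred in both. Microglia-like cells numbered 2011 of 2299 kept cKO cells and 2475 of 2824 kept fl/fl cells, with median depths of 12009 and 10194 UMIs. Hk2 measured 43.5 (41.1 to 45.97) CPM in cKO and 166 (162 to 171) CPM in fl/fl cells, which fits the genotype labels. Cx3cr1, the locus that carries the Cre, measured 677 (667 to 686) CPM in cKO and 1302 (1289.8 to 1315) CPM in fl/fl cells. The interferon-induced gene Isg15 measured 106 (102 to 109.9) CPM in cKO and 21.2 (19.7 to 22.9) CPM in fl/fl cells, and the Ifit3-led cluster of interferon-induced cells held 244 cKO and 55 fl/fl cells. Each genotype is 1 library and cells are not replicates, so differences between genotypes carry no replicate error and no test was run on them. Intervals after a value, in brackets, are exact 95% Poisson or Clopper-Pearson intervals and cover counting error only.

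Several promoters of the module hold a known stress element. ATF6 together with NF-Y binds the ER stress element, CCAAT followed by 9 bases of any kind and CCACG. Motifs were searched on both strands of the 250 bases before the start only. Of the 28 members with a promoter in the RefSeq table (GRCm38.p6), 8 (28.6%) held this element, against 35 of 27025 genes (0.13%). The 8 were Hspa5, Hsp90b1, Calr, Canx, Dnajc3, Pdia6, Syvn1 and Creld2. The core bound by ATF4 with C/EBP partners, searched as TGATG, 1 base, AA and 1 base, stood in 3 of 28 (10.7%), Herpud1, Chac1 and Asns, against 3.89% of genes. The unfolded protein response element core TGACGTGG was in 0 of 28 windows and in 0.603% of genes. Manf, Derl1, Atf6 and Hyou1 had no entry. The 120 bases just before the RefSeq start are given 5′ to 3′ on the gene's strand for 5 members with the ER stress element. The CCAAT and CCACG ends or their reverse complements are in capitals. Members that share the element are later seen to rise or to fall with the immediate early level of the cells, not all of them at each step.
Hspa5, chr2:34771970-34772089, plus strand: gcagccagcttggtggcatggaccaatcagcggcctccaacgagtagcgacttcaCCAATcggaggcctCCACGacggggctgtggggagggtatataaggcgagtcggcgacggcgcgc
Hsp90b1, chr10:86705445-86705564, minus strand: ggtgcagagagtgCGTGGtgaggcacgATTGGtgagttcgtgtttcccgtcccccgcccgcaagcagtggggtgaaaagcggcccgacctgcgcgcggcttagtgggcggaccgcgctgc
Dnajc3, chr14:118937812-118937931, plus strand: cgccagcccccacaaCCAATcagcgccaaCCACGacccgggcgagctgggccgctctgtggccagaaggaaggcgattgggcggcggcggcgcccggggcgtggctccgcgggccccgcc
Pdia6, chr12:17266469-17266588, plus strand: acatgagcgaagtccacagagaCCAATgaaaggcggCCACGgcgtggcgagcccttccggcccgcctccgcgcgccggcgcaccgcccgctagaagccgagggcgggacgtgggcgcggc
Syvn1, chr19:6046456-6046575, plus strand: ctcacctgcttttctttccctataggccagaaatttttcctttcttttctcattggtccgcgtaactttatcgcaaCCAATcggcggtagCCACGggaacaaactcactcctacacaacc
The same stretch is given for 2 members with the ATF4 and C/EBP core, in capitals, one from ER-associated degradation and one from amino acid synthesis.
Herpud1, chr8:94386309-94386428, plus strand: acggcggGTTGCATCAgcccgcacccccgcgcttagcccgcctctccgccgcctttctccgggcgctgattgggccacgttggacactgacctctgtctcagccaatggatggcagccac
Asns, chr6:7693210-7693329, minus strand: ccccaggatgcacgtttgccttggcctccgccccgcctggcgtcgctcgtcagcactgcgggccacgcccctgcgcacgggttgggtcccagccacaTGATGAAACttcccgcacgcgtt

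Between the genotypes the module as a whole hardly differed in RNA level. A member counts as called when its higher CPM was at least 25% above its lower one and the Poisson intervals did not overlap. By that rule 1 of 28 measured members, Sesn2, was higher in cKO and 0 were lower, where 3.49% of all 7812 measured genes were called higher and 2.89% lower. The median log2 ratio of cKO over fl/fl, with 1 CPM added to each level, was 0.04 over the members and -0.04 over all measured genes. Of the 28, 19 had a higher and 9 a lower value in cKO, and 15 were higher when every cell was thinned to 5000 UMIs. All but 1 (96.4%) lay within 25% of equality. Summed over the 32, the module took 8258 CPM in cKO and 8133 CPM in fl/fl cells.

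**Figure D1:**
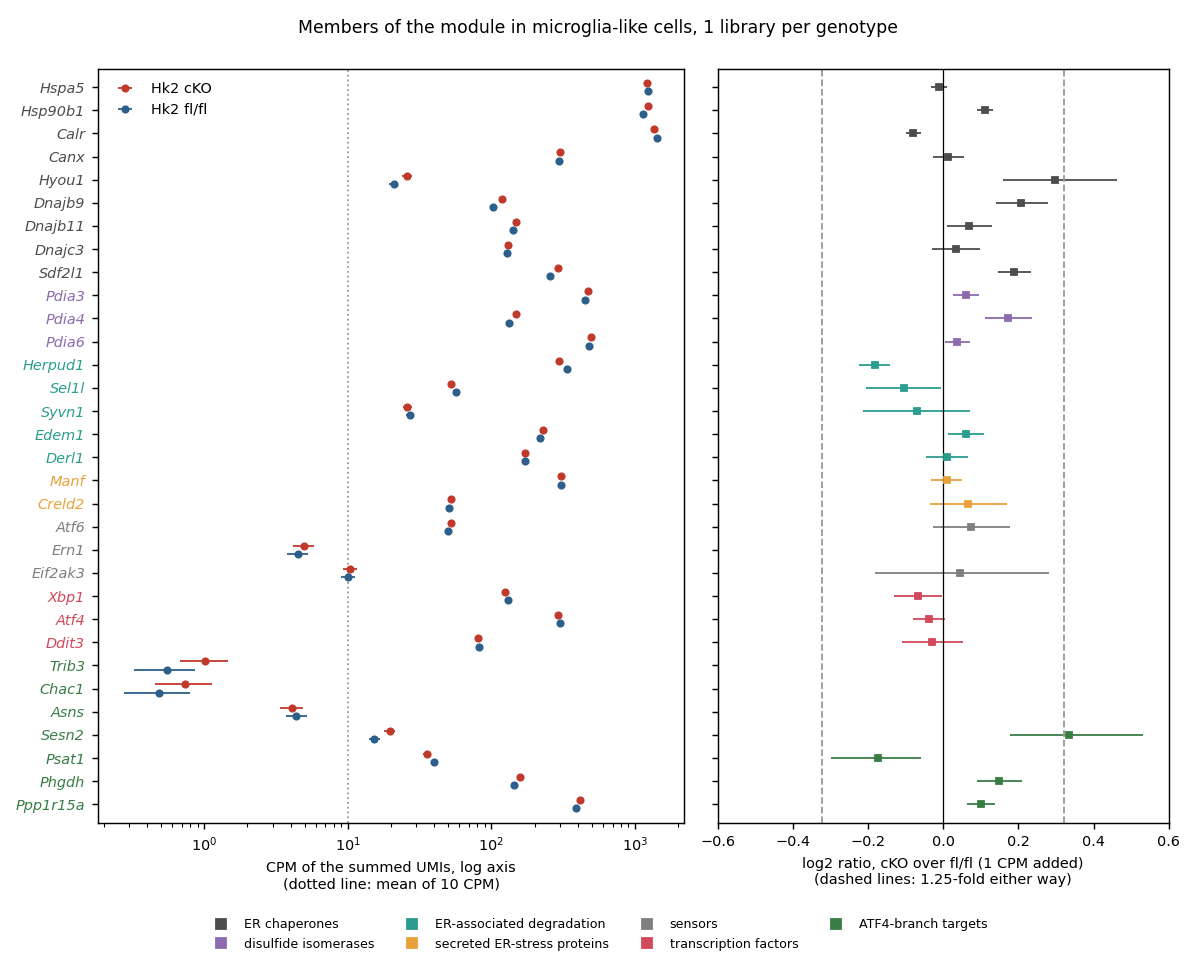
Level of each member in microglia-like cells of the cKO and the fl/fl library (CPM, log axis, dotted line at 10 CPM) and log2 ratio of cKO over fl/fl (1 CPM added, dashed lines at the 25% limit), coloured by role, with exact 95% intervals of the counts and of their ratio. All 28 ratios of measured members sit between -0.18 (Herpud1) and 0.33 (Sesn2).

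The chaperones were abundant and close to equal. Hspa5 encodes BiP, the HSP70 of the ER that also holds the sensors inactive, and measured 1222 (1209 to 1235) CPM in cKO and 1232 (1219.9 to 1244) CPM in fl/fl cells, a log2 ratio of -0.01. Hsp90b1, the ER HSP90 (GRP94) on which Toll-like receptors and integrins depend for folding, measured 1225 (1212 to 1238) CPM in cKO and 1133 (1122 to 1145) CPM in fl/fl cells, a log2 ratio of 0.11. The lectin chaperones bind glycoproteins during folding, and Calr measured 1352 (1339 to 1366) CPM in cKO and 1429 (1416 to 1442) CPM in fl/fl cells (-0.08) and Canx 299 (293 to 305) CPM in cKO and 296 (290.2 to 302) CPM in fl/fl cells (0.01). Hyou1, an HSP110-type exchange factor for BiP, measured 25.9 (24.1 to 27.8) CPM in cKO and 20.9 (19.3 to 22.5) CPM in fl/fl cells, a 1.24-fold difference with separate intervals that lay just under the 25% limit.

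The J-domain cochaperones steer clients to BiP. Dnajb9 (ERdj4), which also brings BiP to IRE1, measured 118 (114 to 122) CPM in cKO and 102 (99.01 to 106) CPM in fl/fl cells, a log2 ratio of 0.21. Sdf2l1, a partner of the Dnajb11 complex, measured 292 (286 to 299) CPM in cKO and 256 (251 to 262) CPM in fl/fl cells, a log2 ratio of 0.19. Both had separate intervals at less than 25%. Dnajb11 (ERdj3) measured 148 (143 to 152) CPM in cKO and 141 (137 to 145) CPM in fl/fl cells (0.07), and Dnajc3 (p58IPK, a cochaperone first known as an inhibitor of eIF2 kinases) measured 131 (127 to 136) CPM in cKO and 128 (124 to 132) CPM in fl/fl cells (0.03). The median ratio of the 9 chaperones was 0.07, with none called.

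The isomerases form and shuffle disulfide bonds. Pdia3 (ERp57), which works with calnexin and calreticulin, measured 469 (461 to 477) CPM in cKO and 449 (442 to 456) CPM in fl/fl cells (0.06). Pdia4 (ERp72) measured 149 (145 to 154) CPM in cKO and 132 (128 to 136) CPM in fl/fl cells (0.17), with separate intervals. Pdia6, which also acts on the active sensor IRE1, measured 492 (484 to 500.1) CPM in cKO and 479 (472 to 487) CPM in fl/fl cells (0.04). Among the secreted ER-stress proteins, Manf (a BiP cofactor and secreted trophic factor) measured 306 (299 to 312) CPM in cKO and 304 (298 to 310.0) CPM in fl/fl cells (0.01) and Creld2 measured 52.8 (50.1 to 55.5) CPM in cKO and 50.4 (47.95 to 52.8) CPM in fl/fl cells (0.07).

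ER-associated degradation was the one role with a median below 0 other than the transcription factors, at -0.07 over 5 genes. Herpud1, a membrane scaffold of the retrotranslocation complex, measured 295 (289 to 302) CPM in cKO and 335 (329 to 341) CPM in fl/fl cells, a log2 ratio of -0.18, the lowest ratio of the module, with separate intervals but under the 25% limit. The ubiquitin ligase of the complex is Syvn1 (HRD1), at 25.9 (24.1 to 27.9) CPM in cKO and 27.2 (25.5 to 29.1) CPM in fl/fl cells (-0.07), and its partner Sel1l measured 52.7 (50.02 to 55.4) CPM in cKO and 56.6 (54.1 to 59.3) CPM in fl/fl cells (-0.10). Derl1, a channel component, measured 172 (167 to 177) CPM in cKO and 171 (166 to 175) CPM in fl/fl cells (0.01). Edem1, which trims mannose from terminally misfolded glycoproteins, measured 229 (223 to 234) CPM in cKO and 219 (214 to 224) CPM in fl/fl cells (0.06).

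The sensors had low RNA levels. Atf6 measured 52.4 (49.8 to 55.1) CPM in cKO and 49.7 (47.4 to 52.2) CPM in fl/fl cells (0.07). Eif2ak3 (PERK) measured 10.4 (9.26 to 11.7) CPM in cKO and 10.1 (9.002 to 11.2) CPM in fl/fl cells (0.05), just above the limit of 10 CPM. Ern1 (IRE1) lay below it, with 140 UMIs in cKO and 147 UMIs in fl/fl cells (4.92 and 4.48 CPM). The transcription factors they act through were near equal in RNA. Xbp1 measured 124 (120.2 to 128) CPM in cKO and 130.2 (126 to 134) CPM in fl/fl cells (-0.07), Atf4 292 (286 to 299) CPM in cKO and 300.2 (294 to 306) CPM in fl/fl cells (-0.04), and Ddit3, the proapoptotic factor CHOP, 80.9 (77.7 to 84.3) CPM in cKO and 82.6 (79.5 to 85.8) CPM in fl/fl cells (-0.03).

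Among the ATF4-branch targets the single called member was Sesn2 (chr4:132492032-132510501, GRCm38), a leucine sensor that restrains mTORC1. It measured 19.6 (18.0 to 21.3) CPM in cKO and 15.3 (14.02 to 16.7) CPM in fl/fl cells, a log2 ratio of 0.33, from 557 and 503 UMIs. The call ended when all cells were thinned to 5000 UMIs (0.13), with all kept cells of the libraries (0.28), in cells positive for neither G2/M nor S genes (0.25) and against the fl/fl cells with Gm28438 RNA described below (0.09). Ppp1r15a (GADD34), the phosphatase subunit that reverses eIF2 phosphorylation, measured 417 (409 to 425) CPM in cKO and 389 (382 to 396) CPM in fl/fl cells (0.10). The serine synthesis enzymes leaned opposite ways below the 25% limit, Phgdh (the first step from 3-phosphoglycerate) at 158 (154 to 163) CPM in cKO and 143 (139 to 147) CPM in fl/fl cells (0.15) and Psat1 (the aminotransferase after it) at 35.5 (33.3 to 37.8) CPM in cKO and 40.2 (38.03 to 42.4) CPM in fl/fl cells (-0.17). The 4 members too low to measure include 3 of these targets. Trib3, a pseudokinase induced by ATF4 and CHOP, had 29 UMIs in cKO and 18 UMIs in fl/fl cells. Chac1, which breaks down glutathione, had 21 and 16 UMIs in the same order, and Asns, asparagine synthetase, had 116 and 144.

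Shares of cells with a UMI were taken after each cell was thinned to 5000 UMIs, which left 1831 cKO and 2255 fl/fl cells and dropped 180 and 220 shallower ones. Ddit3 was seen in 31.1% (28.96 to 33.3) of cKO and 32.6% (30.7 to 34.6) of fl/fl cells, and unthinned in 52.6% and 52.7%. Sesn2 was seen in 7.76% (6.57 to 9.08) of cKO and 7.32% (6.28 to 8.47) of fl/fl cells. Trib3 was seen in 0.655% (0.339 to 1.14) of cKO and 0.355% (0.153 to 0.698) of fl/fl cells, that is 12 and 8 cells. The share of Ppp1r15a ran against its summed level, at 69.3% (67.1 to 71.4) of cKO and 74.3% (72.5 to 76.1) of fl/fl cells with separate intervals, so no order is read from it. Hspa5, near equal in CPM, was seen in 96.1% (95.1 to 96.96) of cKO and 98.4% (97.8 to 98.9) of fl/fl cells, also with separate intervals. Atf4 was seen in 66.96% (64.8 to 69.1) of cKO and 69.8% (67.8 to 71.6) of fl/fl cells. These genes are broadly expressed and no cell type here is known to lack them, so the part of these shares that comes from free RNA was not measured.

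Most other measured genes of the pathways were also close to equal. Of 53 further unfolded protein response and ER import genes, 50 were measured, 1 was called higher and 0 lower, with a median log2 ratio of 0.01, beside the same background shares of 3.49% and 2.89%. The called gene was Sec61g, the small subunit of the translocon, at 31.7 (29.7 to 33.8) CPM in cKO and 17.7 (16.3 to 19.2) CPM in fl/fl cells, a log2 ratio of 0.81. Next in size were Mbtps1 (site-1 protease, which cleaves ATF6) at 24.3 (22.6 to 26.2) CPM in cKO and 30.3 (28.4 to 32.2) CPM in fl/fl cells (-0.30), Srp54a (0.15) and Edem2 (0.14). The most abundant, Ppib, Sec61b and Rpn2, had log2 ratios of 0.05, -0.03 and -0.07. Of 51 further integrated stress response genes found, 37 were measured, 1 was called higher and 0 lower, with a median of 0.03. The called gene was Eif2ak2 (PKR), the eIF2 kinase that senses double-stranded RNA and is itself interferon-induced, at 101 (97.6 to 105) CPM in cKO and 64.8 (62.1 to 67.6) CPM in fl/fl cells, a log2 ratio of 0.64. The amino acid sensing kinase Eif2ak4 (GCN2) measured 11.2 (9.99 to 12.5) CPM in cKO and 13.3 (12.1 to 14.6) CPM in fl/fl cells (-0.23). Jdp2 (0.29) and Nupr1 (0.28) leaned higher below the 25% limit, and the abundant Atf3, Cebpb and Slc3a2 had ratios of -0.17, -0.13 and -0.04. Gdf15 and Slc7a5 had a mean below 10 CPM and so could not be called, but their intervals were separate. Gdf15 measured 1.83 (1.37 to 2.40) CPM in cKO and 4.66 (3.95 to 5.46) CPM in fl/fl cells. Slc7a5 went the other way, at 11.0 (9.86 to 12.3) CPM in cKO and 7.80 (6.88 to 8.82) CPM in fl/fl cells.

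As with measured genes in general, the members differed more between fl/fl cells grouped by mitochondrial RNA than they did between genotypes. The median size of the log2 ratio, whatever its sign, was 0.28 over the members between the fl/fl groups and 0.07 between genotypes. Over all measured genes it was 0.16 and 0.09 in the same order. The fl/fl groups also hold fewer cells than the genotypes do. Most cells carried UMIs of either mt-Nd3 or Gm28438, which GENCODE annotates as an unprocessed pseudogene on chromosome 1, and not of both. These groups are not the study's, and what they stand for is not given in the labels. Cells with Gm28438 alone numbered 1709 in cKO and 495 in fl/fl, cells with mt-Nd3 alone 1204 in fl/fl and 4 in cKO. The module summed to 8296 CPM in the cKO cells with Gm28438, 9171 CPM in the fl/fl cells with Gm28438 and 7808 CPM in the fl/fl cells with mt-Nd3. The genotype difference therefore changed sign with the fl/fl group it was set against.

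Against the fl/fl cells with Gm28438, 23 of 27 measured members were lower and 4 higher in cKO, with a median of -0.13 (all genes -0.06), 1 called higher (background 4.95%) and 1 lower (background 8.22%). The called members were Dnajb9, higher, and Psat1, lower. Against the fl/fl cells with mt-Nd3, 22 of 28 were higher, with a median of 0.10 (all genes -0.0043), 2 called higher (background 4.72%) and 0 lower (background 3.11%). Those were Hyou1 and Sesn2. Within fl/fl, the cells with Gm28438 over those with mt-Nd3 gave a median of 0.28 (all genes 0.05), 8 of 27 called higher (background 9.73%) and 0 lower (background 4.35%).

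Hyou1 measured 25.9 CPM in the cKO cells with Gm28438, 27.2 CPM in the fl/fl cells with Gm28438 and 18.9 CPM in the fl/fl cells with mt-Nd3. Sesn2 measured 18.8 CPM in the cKO cells with Gm28438, 17.6 CPM in the fl/fl cells with Gm28438 and 13.3 CPM in the fl/fl cells with mt-Nd3. Dnajb9 ran otherwise, with 115 CPM in the cKO cells with Gm28438, 86.2 CPM in the fl/fl cells with Gm28438 and 102 CPM in the fl/fl cells with mt-Nd3. Immediate early genes summed to 7399.8, 7281 and 8339.9 CPM and G2/M genes to 891, 1085 and 959 CPM in the same 3 groups, and the part of these in the differences was not tested.

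**Figure D2:**
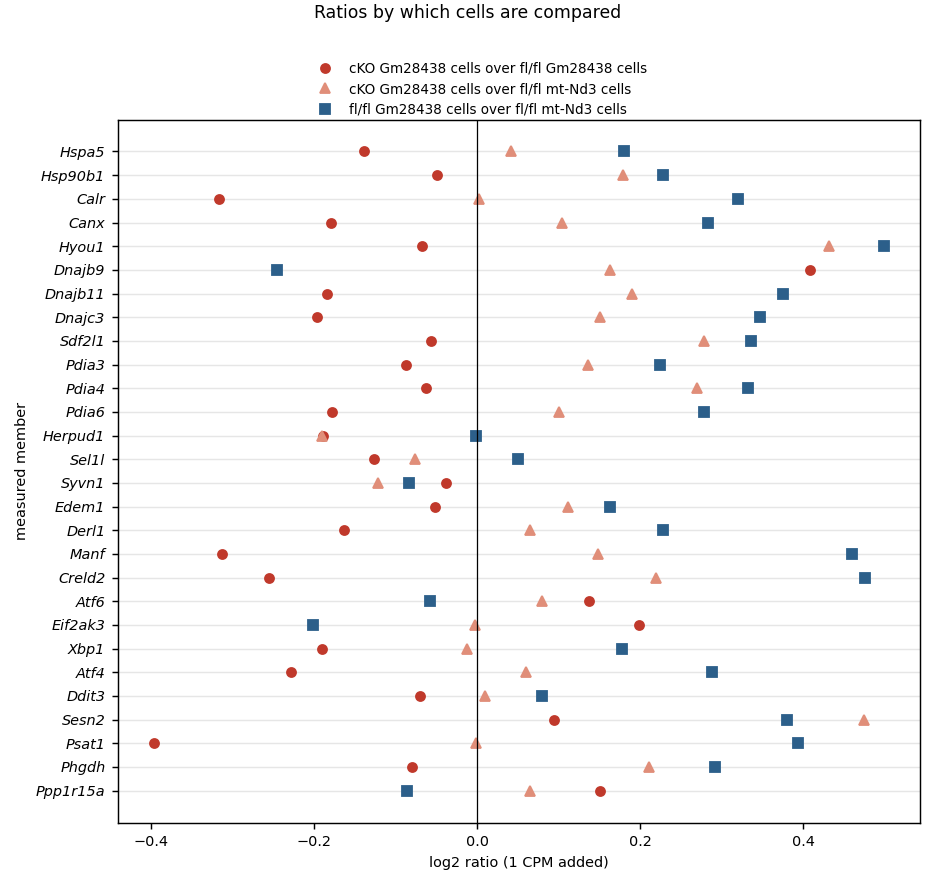
Log2 ratio of each measured member (1 CPM added) in 3 comparisons of microglia-like cells grouped by mitochondrial RNA, cKO cells with Gm28438 over fl/fl cells with Gm28438, the same cKO cells over fl/fl cells with mt-Nd3, and the groups of fl/fl cells over each other. Most members sit below 0 in the first comparison, with a median of -0.13, and above 0 in the other comparisons.

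Members, like measured genes in general, were called more often by microglial state than by genotype. The state counts pool 9 comparisons and the genotype count holds 1. The 9 microglia-like clusters were built without the members, the pathway lists or Hk2. A member was called in a state when it was at least 1.5-fold higher or lower than in the other microglia-like cells of its library, in both libraries, with separate intervals. Of 28 members, 12 were called higher in at least 1 state (background 27.4%) and 19 lower in at least 1 (background 42.0%). A state against the rest is a description, and states share the cells they are set against. With coarser clustering (resolution 0.5, 6 clusters) 5 were higher (background 22.1%) and 12 lower (background 36.4%) in at least 1 state.

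In the state with most immediate early RNA, 5 of the 12 chaperones and isomerases were called lower and 1 (Dnajb9) higher, while the CHOP and GADD34 genes were called higher. This cluster, led by Rrad and Atf3, held 303 cKO and 383 fl/fl cells and its 14 immediate early genes summed to 13127 CPM in cKO and 12889 CPM in fl/fl. Called higher were 5 members, Dnajb9, Herpud1, Ddit3, Sesn2 and Ppp1r15a (background 6.72%). Called lower were 9, Hsp90b1, Dnajb11, Sdf2l1, Pdia4, Pdia6, Manf, Creld2, Psat1 and Phgdh (background 11.8%). Ppp1r15a measured 641 CPM in cKO and 585 CPM in fl/fl there, log2 ratios to the other cells of 0.74 in cKO and 0.69 in fl/fl. On the lower side Sdf2l1 measured 154 CPM in cKO and 139.6 CPM in fl/fl (-1.02 in cKO and -0.96 in fl/fl) and Hsp90b1 723 CPM in cKO and 681 CPM in fl/fl (-0.85 in cKO and -0.81 in fl/fl). BiP was not called, and Hspa5 measured 1274 CPM in cKO and 1282 CPM in fl/fl (0.07 in cKO and 0.07 in fl/fl).

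All 5 members called higher there were called lower in the dividing cluster led by Pbk and Cdc20, with 111 cKO and 93 fl/fl cells, where immediate early genes summed to only 594 CPM in cKO and 629 CPM in fl/fl. Here 5 members were called higher, Sdf2l1, Manf, Creld2, Psat1 and Phgdh (background 8.67%), so Sdf2l1 was the 1 folding gene among them. Called lower were 10, Hspa5, Dnajb9, Herpud1, Sel1l, Syvn1, Atf6, Atf4, Ddit3, Sesn2 and Ppp1r15a (background 25.1%). Hsp90b1 was not called in these cells (0.18 in cKO and 0.13 in fl/fl). Phgdh measured 281 CPM in cKO and 322 CPM in fl/fl, and Ppp1r15a 19.3 CPM in cKO and 8.12 CPM in fl/fl. A cluster led by mt-Rnr1 and Apoe, with 300 cKO and 206 fl/fl cells and immediate early genes at 918 CPM in cKO and 1613 CPM in fl/fl, had 0 members higher (background 0.627%) and 7 lower, Dnajb9, Herpud1, Atf6, Atf4, Ddit3, Sesn2 and Ppp1r15a (background 17.9%). Of the 9 clusters it had the highest mitochondrial share, 4.15% in cKO and 4.57% in fl/fl, and the lowest median depth, 7049.5 UMIs in cKO and 7345 UMIs in fl/fl, and the part of these in its 7 lower calls was not tested. The dividing cluster had a mitochondrial share of 3.58% in cKO and 3.64% in fl/fl and a median depth of 7960 UMIs in cKO and 7976 UMIs in fl/fl. Atf4 measured 84.3 CPM in cKO and 101 CPM in fl/fl in the dividing cluster and 83.5 CPM in cKO and 86.6 CPM in fl/fl in this one.

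The Klf2-led cluster, with 188 cKO and 455 fl/fl cells, had the highest Atf4 level of the 9. Called higher were Syvn1, Atf4, Ddit3 and Sesn2 (4 of 28, background 4.86%), with 0 lower (background 2.94%), and Atf4 measured 505 CPM in cKO and 501 CPM in fl/fl (0.85 in cKO and 0.87 in fl/fl). In the Dlg4- and Fosb-led cluster, with 251 cKO and 333 fl/fl cells, the 1 member called higher was Dnajb9 (background 2.11%) and 3 were lower, Creld2, Psat1 and Phgdh (background 6.26%). A second dividing cluster, led by Top2a, with 147 cKO and 236 fl/fl cells, had Psat1 called higher at 71.6 CPM in cKO and 68.9 CPM in fl/fl (1 of 28, background 8.38%) and Dnajb9 lower (1 of 28, background 2.18%).

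The remaining states had none of the 28 called. These were the inflammatory Cxcl2- and Il1b-led cluster with 324 cKO and 438 fl/fl cells (backgrounds 0.422% higher and 2.69% lower), a Ccnb2-led dividing cluster with 143 cKO and 276 fl/fl cells (backgrounds 1.08% and 1.73%), and the interferon-induced Ifit3-led cluster with 244 cKO and 55 fl/fl cells (backgrounds 1.64% and 2.73%). Ddit3 measured 56.4 CPM in cKO and 66.3 CPM in fl/fl in the inflammatory cluster and 104 CPM in cKO and 99.5 CPM in fl/fl in the interferon-induced one.

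**Figure D3:**
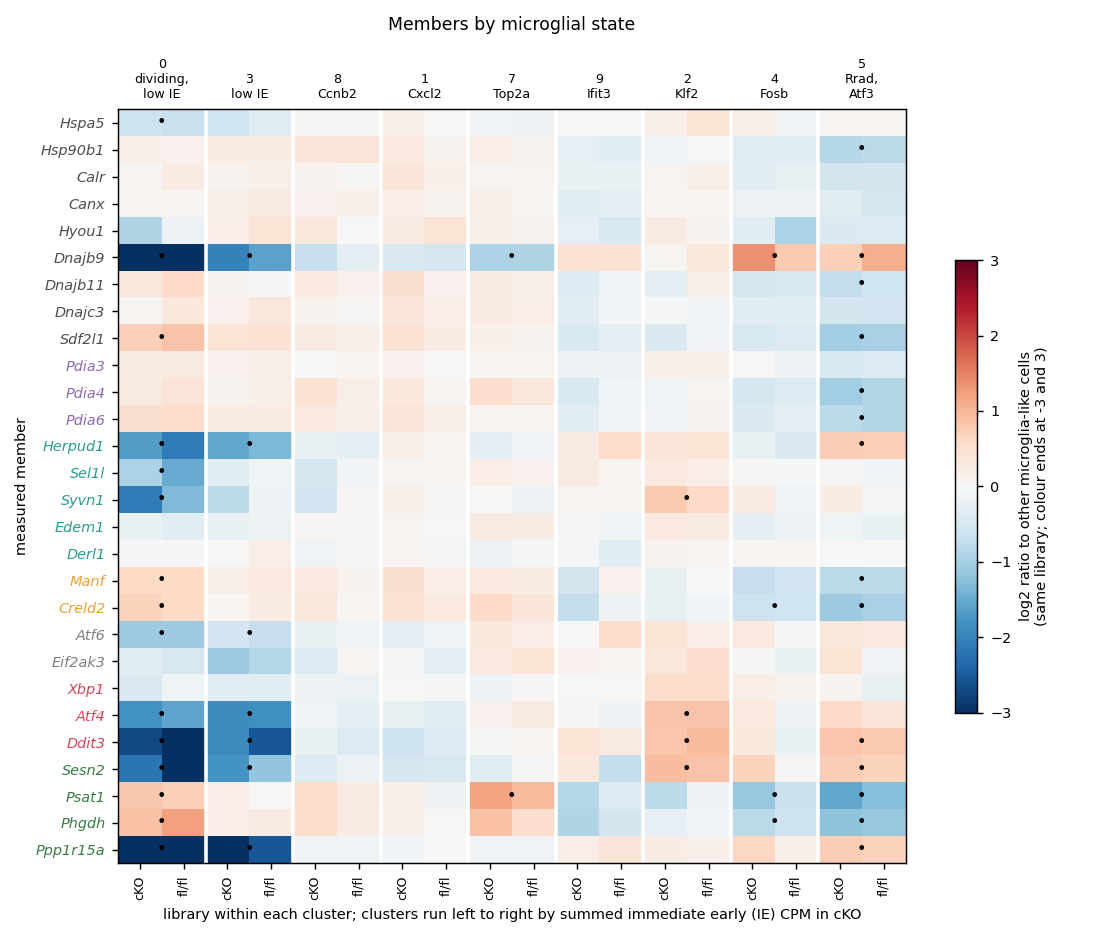
Log2 ratio of each measured member in a microglia-like cluster over the other microglia-like cells of the same library (1 CPM added), with the cKO library left of the fl/fl library, clusters ordered by their immediate early level in cKO, dots on called members, and the Pbk- and mt-Rnr1-led clusters marked low IE. Dnajb9, Herpud1, Ddit3, Sesn2 and Ppp1r15a are high in the Rrad- and Atf3-led cluster and low in the Pbk- and mt-Rnr1-led clusters, while Sdf2l1, Manf, Creld2, Psat1 and Phgdh are low in the first of these and high in the Pbk-led one.

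The same microglia-like cells were also grouped by their own immediate early level. These bins re-cut the cells of the clusters, and immediate early genes other than Atf3 could enter the clustering. The bins are therefore no independent support for the split by state. The share of each bin that came from the Pbk- and mt-Rnr1-led clusters is not given here. Immediate early genes such as Fos and Jun are transcribed within minutes of a stimulus, in tissue or during cell isolation. Microglia-like cells thinned to 5000 UMIs were ranked by these 14 genes into 4 bins per library. Of 28 members, 9 rose at each step in both libraries, Hspa5, Dnajb9, Herpud1, Syvn1, Xbp1, Atf4, Ddit3, Sesn2 and Ppp1r15a, against 18.3% of all measured genes. Another 10 fell at each step in both, Hsp90b1, Canx, Dnajb11, Sdf2l1, Pdia3, Pdia4, Pdia6, Manf, Psat1 and Phgdh, against 10.5% of genes. The median gene stood 0.33 log2 higher in the top than the bottom bin in cKO and 0.20 in fl/fl.

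From the lowest to the highest bin Ppp1r15a measured 63.3, 401, 509.6 and 727 CPM in cKO and 141, 367, 466 and 609.6 CPM in fl/fl. Ddit3 measured 20.1, 63.8, 101 and 169 CPM in cKO and 22.7, 75.5, 109 and 158 CPM in fl/fl. Atf4 measured 101, 257, 364 and 508 CPM in cKO and 147, 287, 365 and 482 CPM in fl/fl. The factors and the eIF2 phosphatase subunit thus climbed together, and BiP climbed with them over a narrower range, Hspa5 measuring 847, 1207, 1349 and 1486 CPM in cKO and 994, 1215, 1370.2 and 1423 CPM in fl/fl. GRP94 went the other way, with Hsp90b1 at 1375, 1296, 1075 and 857 CPM in cKO and 1275, 1175, 1054 and 806 CPM in fl/fl. Phgdh measured 205, 162, 122 and 93.2 CPM in cKO and 186, 120.2, 119.5 and 94.1 CPM in fl/fl, although it is counted as an ATF4 target.

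Of the 8 members with an ER stress element in the promoter, Hspa5 and Syvn1 rose across these bins and Hsp90b1, Canx and Pdia6 fell. Calr, Dnajc3 and Creld2 did not fall at each step in both libraries. They were still lower in the highest than the lowest bin of both. Their log2 ratios were -0.35 in cKO and -0.36 in fl/fl for Calr, -0.35 and -0.68 for Dnajc3, and -1.14 and -0.53 for Creld2. The genotype ratios of the 8 had a median of 0.02, with 0 called. Those of the 16 other measured members with a promoter entry had a median of 0.06, with 1 called.

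Dividing cells were more frequent in the low bins. The share positive for G2/M or S genes was 63.1, 46.5, 31.2 and 28.2% in cKO and 63.3, 54.3, 46.5 and 29.8% in fl/fl from the lowest to the highest bin. In cells positive for neither, all 9 rising and all 10 falling members kept their direction between the lowest and the highest bin in both libraries (328 and 169 cKO cells and 395 and 207 fl/fl cells in the highest and lowest bins). These cells are part of those that picked the members, so this is a description and no independent check. No share of all genes stands beside it. Some intervals overlapped, as for Xbp1 at 152 (134 to 172) CPM in the highest and 118 (96.3 to 144) CPM in the lowest cKO bin. In the cells positive for neither, Atf4 measured 523 CPM in the highest and 88.8 CPM in the lowest bin of cKO, and 470.4 and 122 CPM in fl/fl. Sdf2l1 measured 145 CPM in the highest and 372 CPM in the lowest bin of cKO, and 150.4 and 242 CPM in fl/fl. Between cells positive for G2/M or S genes and the other cells, Psat1 and Phgdh differed most among the 28 measured members, with log2 ratios of 1.35 in cKO and 1.00 in fl/fl for Psat1 and 1.16 in cKO and 1.08 in fl/fl for Phgdh, where the median of the 28 members was 0.10 in cKO and 0.17 in fl/fl. Positive cells also held fewer immediate early UMIs, a mean of 30.9 against 47.1 in cKO and 36.2 against 51.3 in fl/fl at 5000 UMIs, and the part of that in these ratios was not tested.

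**Figure D4:**
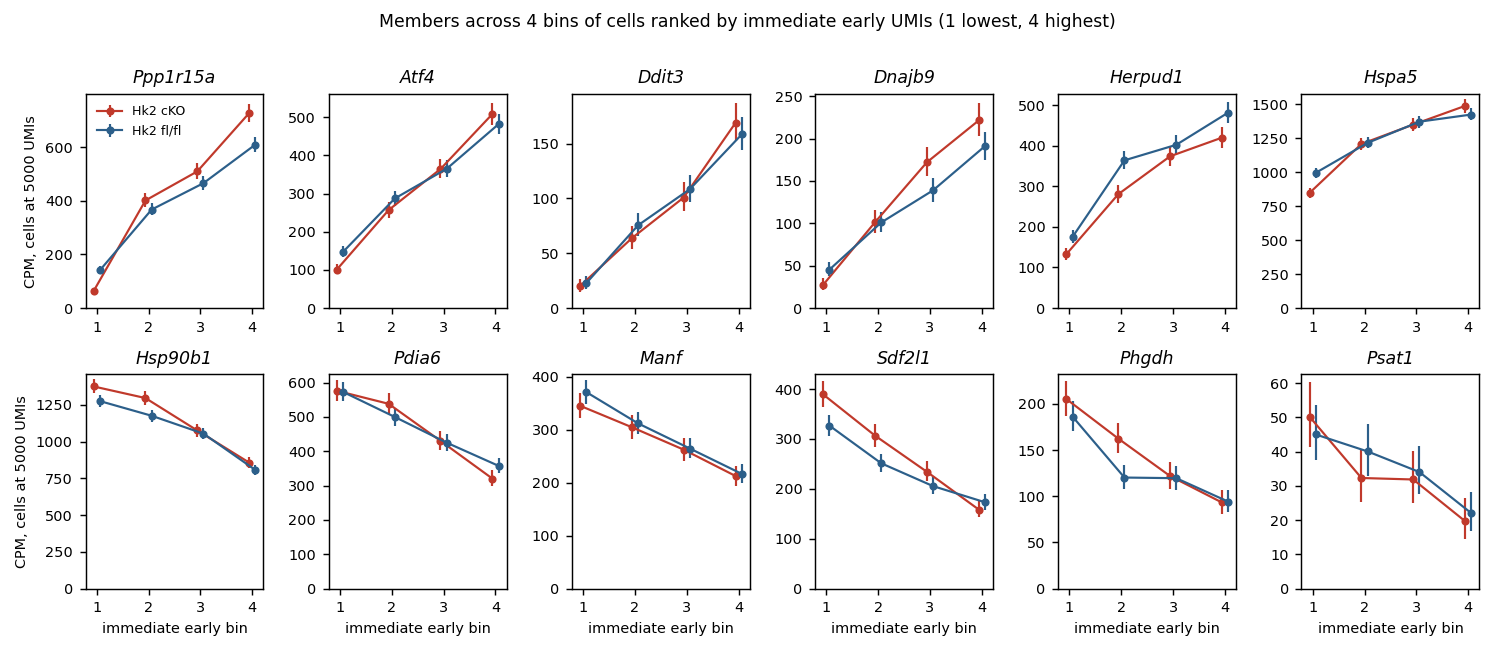
Level of selected members (CPM from 0, with exact 95% Poisson intervals) in 4 bins of microglia-like cells ranked by 14 immediate early genes, each cell thinned to 5000 UMIs, for the cKO and the fl/fl library. Ppp1r15a, Ddit3, Atf4 and Dnajb9 climb at each step in both libraries, while Hsp90b1, Sdf2l1 and Phgdh fall.

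Within single states the genotypes differed for a few members. Over the 9 clusters, 21 of 243 member values (8.64%) passed the 25% rule, 13 higher and 8 lower in cKO, where 5.77% of values of all genes did. The Dlg4- and Fosb-led cluster held 6 of the higher ones, against a background of 6.32%. They were Hyou1, Dnajb9, Atf4, Ddit3, Sesn2 and Ppp1r15a. Dnajb9 measured 264 (246 to 282) CPM in cKO and 164 (151 to 177) CPM in fl/fl in that cluster, Atf4 349 (328 to 370.2) CPM in cKO and 271 (255 to 289) CPM in fl/fl, and Ppp1r15a 608 (581 to 636) CPM in cKO and 430.2 (409 to 452) CPM in fl/fl. Immediate early genes summed to 10359 CPM in cKO and 9778 CPM in fl/fl in the same cells, and their part in these differences was not tested.

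In the other clusters 7 values were higher and 8 lower. In the mt-Rnr1- and Apoe-led cluster Herpud1 (-0.35) and Ppp1r15a were lower, Ppp1r15a at 32.9 (26.4 to 40.7) CPM in cKO and 68.01 (56.7 to 80.9) CPM in fl/fl, and immediate early genes stood at 918 CPM in cKO and 1613 CPM in fl/fl. In the interferon-induced cluster Herpud1 (-0.51) and Manf were lower, Manf at 216 (201 to 232) CPM in cKO and 332 (289 to 378) CPM in fl/fl, from only 55 fl/fl cells. Phgdh was higher in the Top2a- and Ccnb2-led dividing clusters, at 267 (249.7 to 286) CPM in cKO and 190.4 (178 to 203) CPM in fl/fl in the Top2a-led one and 217 (201 to 234) CPM in cKO and 165 (155 to 176) CPM in fl/fl in the Ccnb2-led one. In the Ccnb2-led cluster Hyou1 was also higher (0.59) and the degradation genes Sel1l (-0.49) and Syvn1 (-0.62) were lower. Pdia4 was higher in both of these (0.33 in the Top2a-led and 0.43 in the Ccnb2-led cluster) and, with Sdf2l1 (0.35), in the inflammatory cluster (0.37). In the Klf2-led cluster Dnajb11 (-0.37) and Psat1 (-0.78) were lower. Values in brackets without an interval are log2 ratios of cKO over fl/fl.

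Joint detection of ATF4-branch genes in single cells was close to the product of the single shares at 2 or more genes. Of 7 genes (Ddit3, Trib3, Chac1, Asns, Sesn2, Psat1 and Phgdh), at least 2 were seen together in 477 cKO cells, where the product of the single shares gives 478, and in 575 fl/fl cells, where it gives 574. At least 3 were seen in 82 cKO cells (75.7 from the product) and 108 fl/fl cells (90.1). The serine enzymes Psat1 and Phgdh shared 173 cKO cells (122 from the product) and 190 fl/fl cells (149), and Ddit3 and Sesn2 shared 57 (44.1) and 70 (53.9) in the same order. Ddit3 and Phgdh shared fewer cells than the product gives, 225 in cKO (261 from the product) and 295 in fl/fl (310). Pairs above and below the product thus offset each other in the pooled count. Trib3, Chac1 and Asns were seen in only 12, 5 and 32 cKO cells. The counts are sparse descriptions and can neither show nor exclude a separate group of cells.

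Of the other cell types only neutrophil-like and endothelial-like cells reached 50 cells in each library. Neutrophil-like cells (89 cKO and 82 fl/fl), defined by genes such as S100a8, had 19 of the 28 members called lower than in microglia-like cells in both libraries (background 27.9%) and 0 higher (background 3.83%). Phgdh measured 41.1 CPM in cKO and 43.7 CPM in fl/fl and Pdia4 44.3 CPM in cKO and 49.8 CPM in fl/fl in these cells, while Atf4, at 234 CPM in cKO and 281 CPM in fl/fl, and Sesn2, at 24.98 CPM in cKO and 16.3 CPM in fl/fl, were not called. Endothelial-like cells (94 cKO and 54 fl/fl) had none of the 28 called (backgrounds 3.48% higher and 1.16% lower), with Hspa5 at 830.4 CPM in cKO and 799 CPM in fl/fl and Atf4 at 239 CPM in cKO and 264 CPM in fl/fl. Microglial RNA was present in both types. Summed over 4 microglial markers it stood at 1201 CPM in cKO and 1242 CPM in fl/fl neutrophil-like cells and at 1855 and 1881 CPM in endothelial-like cells, beside 2750.1 and 2696 CPM in microglia-like cells, and its part in the differences between types was not tested.

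**Figure D5:**
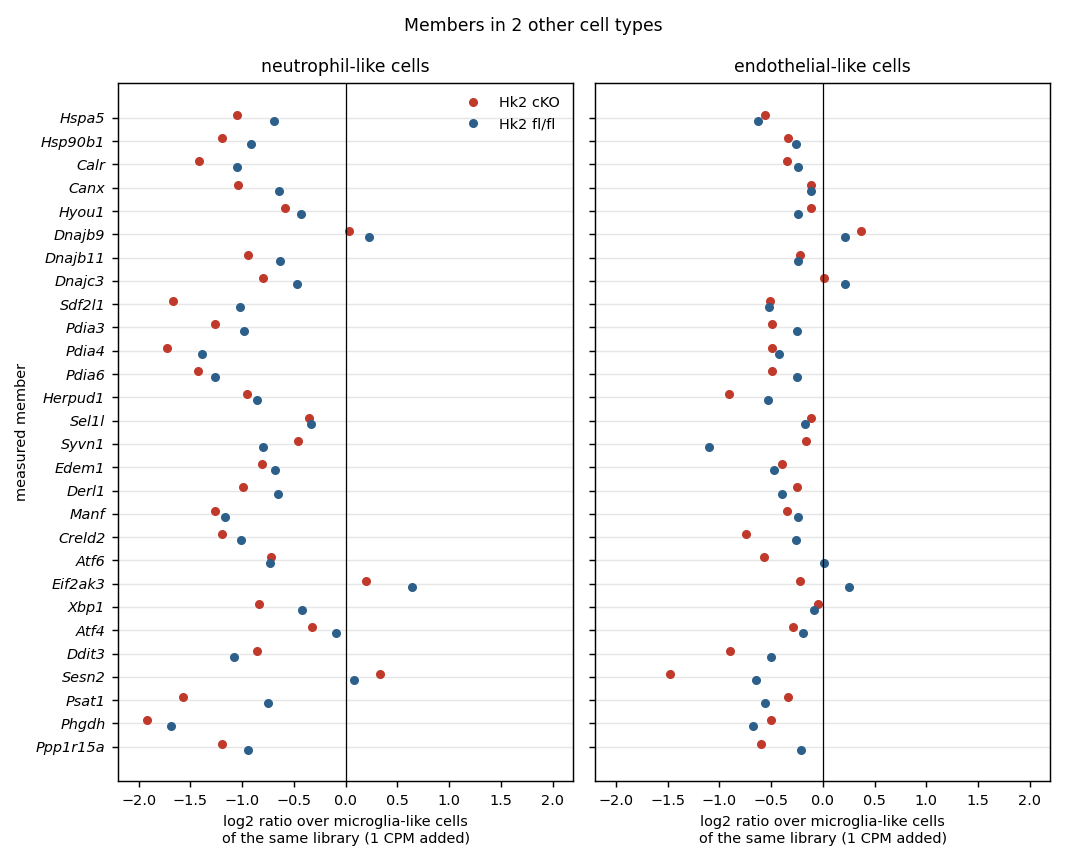
Log2 ratio of each measured member in neutrophil-like and in endothelial-like cells over microglia-like cells of the same library (1 CPM added), for cKO and fl/fl. In neutrophil-like cells most members lie well below 0, with Dnajb9, Eif2ak3 and Sesn2 above it in both libraries, and in endothelial-like cells most lie closer to 0.

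Some members share sequence with other annotated genes. The UMI counts below do not show how reads of the shared stretches were assigned or whether they were left out. In GENCODE M21, 4 members (Hsp90b1, Pdia4, Manf and Ddit3) share exon bases on the same strand with another gene identifier, and Phgdh has near-identical copies of its 3' end in pseudogenes. The second Ddit3 identifier had 0 UMIs, the gene that overlaps Manf (Rbm15b) had 865 UMIs against 20477 for Manf, and the Phgdh pseudogenes held 14 UMIs against 9880.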

How the data were processed

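Per the labels' protocols, 10x 3' v3 libraries were made from brain cells gated on CD11b and low CD45, 1 for each genotype. The deposited values are raw UMI counts per gene and barcode, from Cell Ranger 3.1.0 after bcl2fastq with GRCm38 (per the submitters' processing notes), and were not normalized. The annotation was not given in the sources used here, but all 55450 identifiers and symbols match GENCODE M21. Where a symbol had several identifiers, the one with most counts was used.

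Kept barcodes had 500 or more genes and no more than 10% of UMIs from mitochondrial genes. Scrublet marked 2 cells per library, at most 0.0869% of each, so it did not work and most doublets are still in the data. Cells were clustered in scanpy 1.11.5 (2000 variable genes without members, pathway lists or Hk2, 30 principal components, 15 neighbours, Leiden at 0.8), and clusters were named from marker lists. A cluster took the name of another class when 3 of its markers were found in 25% or more of cells at 4 times the level elsewhere (10 CPM added), and was microglia-like when no class did so and 16 microglial markers were in 80% of cells on average. UMIs were summed over microglia-like cells (28429130 cKO and 32808746 fl/fl) and given as CPM. Ratios have 1 CPM added, which understates differences of low genes. The intervals are exact, at 95%, and cover counting error only, since PCR and animals add spread that 1 library per genotype cannot show. No test was run.

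All members were named, and of each pathway list the 4 widest ratios and the 3 most abundant genes. By state, called members were named. The members, lists and rules were chosen with earlier results of these data known. G2/M- or S-positive cells had UMIs of at least 3 of 12 genes after thinning to 5000 UMIs. The rules were tested on simulated counts. Alternatives were TMM scaling (edgeR 4.0.16), means over cells, CPM without ribosomal protein and mitochondrial genes, thinned cells, other filters, folds, doublet choices and resolutions. The immediate early bins, the comparison of G2/M- or S-positive with other cells, equal weight per cluster and leaving out clusters low in immediate early genes were chosen after seeing the data.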

Additional observations from a re-analysis of the deposited data

Results flagged for a closer look

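Ppp1r15a had opposite genotype ratios in different microglial states. Its log2 ratio of cKO over fl/fl was -1.02 in the mt-Rnr1- and Apoe-led cluster, from 32.9 (26.4 to 40.7) CPM in cKO and 68.01 (56.7 to 80.9) CPM in fl/fl, and 0.50 in the Dlg4- and Fosb-led cluster, from 608 (581 to 636) CPM in cKO and 430.2 (409 to 452) CPM in fl/fl. It was singled out because the gene passed the 25% rule in opposite directions in these clusters. The difference between the clusters was not tested, with 1 library per genotype.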

How the results depend on the processing

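No direction of a median or count was turned by another scaling, filter or resolution, but the module median of 0.04 came close to equality in some. It was 0.0080 with thinned cells, 0.0075 as a mean over cells and 0.0007 in cells positive for neither G2/M nor S genes. In the cells positive for neither, 14 members were higher and 13 lower in cKO, and the called member was Hyou1 in place of Sesn2. Among Gm28438 cells of both genotypes the module median became -0.13, the chaperone median -0.14 and the ATF4-branch target median 0.0071, and 1 member was called lower (background 8.22%). Of cKO Gm28438 cells against fl/fl mt-Nd3 cells the chaperone median was 0.16. The count called higher, 1 as reported, was 2 with TMM scaling (background 3.98%), with cKO Gm28438 against fl/fl mt-Nd3 cells (4.72%), without the clusters low in immediate early genes (4.01%) and with equal weight per cluster (2.78%), and 0 with thinned cells (3.03%), all kept cells (3.995%), a mean of at least 20 CPM (3.25%) or at least 1.5-fold (1.37%). At 1.1-fold 6 were higher and 2 lower (backgrounds 8.27% and 12.5%). At resolution 0.5, with 6 clusters in place of 9, 5 members were higher and 12 lower in at least 1 state (backgrounds 22.1% and 36.4%). The cause of these moves was not tested. Of 448 alternative member ratios, 85 lay outside the member's reported counting interval, and 8 of 28 members kept 1 sign in all 16 alternatives, Dnajb9, Atf6, Sesn2 and Ppp1r15a higher and Herpud1, Sel1l, Xbp1 and Psat1 lower. Some of these came close to equality, with a lowest ratio of 0.0007 for Atf6 and highest ratios of -0.0014 for Psat1 and -0.012 for Xbp1. Many alternatives use nearly the same cells. The share of cells with Ppp1r15a, given above, was lower in cKO.

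With 1 library per genotype, animal, batch and genotype cannot be told apart. Ern1, Trib3, Chac1 and Asns had a mean below the chosen limit of 10 CPM, so no genotype ratio is read for them. Trib3 and Chac1 also had few UMIs. No paired analysis was possible because each genotype has 1 library and no test was run.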

Other observations

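The 308 cKO and 265 fl/fl barcodes left out by the cell filters held 592695 and 542008 UMIs. In them Hspa5 measured 683 (618 to 753) CPM in cKO and 832 (757 to 913) CPM in fl/fl, Calr 732 (665 to 804) and 1020.3 (937 to 1109) CPM in the same order, and Atf4 137 (109 to 169.9) and 225 (187 to 269) CPM. These genes stood lower there than in microglia-like cells of the same library, and the genotype difference was not read against all genes in these barcodes.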
